A study of Saccharomyces cerevisiae with 151 samples.

Results

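The zinc regulon genes of Saccharomyces cerevisiae described here are ZRT1, ZRT2, ZRT3, ZPS1, ZAP1 and ADH4, followed in 8 strains before and after addition of the histidine synthesis inhibitor 3-aminotriazole (3AT). They were chosen by name, as genes whose probe sets the platform annotation assigns to them, and are 6 of the 5656 genes that a probe set of 1 gene names; 10 of the 9335 probe sets on the array carry them. Each level is an array signal after the array was multiplied by 1 factor that sets its 2% trimmed mean to 500. The series holds 151 arrays of the haploid laboratory strain BY4741 and of deletion strains made in it. Undeleted cells (WT, 24 arrays) and cells deleted for GCN4 (23 arrays), LEU3 (24) or GAT1 (23) were collected at 0, 10, 20, 30, 45, 60, 90 and 120 min. The double deletions GAT1GCN4 (16 arrays), GCN4LEU3 (18) and GAT1LEU3 (17) and the MET31 deletion (6) stopped at 60 min. All strains grew at 28 °C in SC medium to an OD600 of 0.5, where the 0 min sample was taken, and 3AT then went in at 100 mM. Strains are named below by their deleted genes in lower case. A strain and time holds 3 arrays, or 2 in gat1 at 20 min, gcn4 at 60 min, gat1gcn4 at 0 and 45 min and gat1leu3 at 45 min, and met31 has 1 array per time. The met31 arrays after 0 min carry no treatment label, and that strain entered no test.

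Yeast takes up zinc through ZRT1, the high-affinity transporter of the plasma membrane, and ZRT2, its low-affinity counterpart. ZRT3 moves stored zinc out of the vacuole. ZPS1 encodes a cell wall protein made under zinc shortage, and ADH4 a member of the alcohol dehydrogenase family. ZAP1 is the transcription factor that activates these genes when zinc is scarce, its own gene included, and that lowers ZRT2 when shortage is severe. The deleted genes encode the activator of amino acid synthesis Gcn4, the leucine pathway regulator Leu3, the GATA factor Gat1 of nitrogen metabolism and the sulfur metabolism factor Met31.

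The deleted genes checked the strain labels. In arrays that should lack it, LEU3 read at most 35.7 (59 arrays, WT median 117), GAT1 at most 39.8 (56 arrays, WT median 138) and MET31 at most 14.4 (6 arrays, WT median 449). GCN4 read at most 2285 (57 arrays, WT median 6734), that one array being gcn4 at 90 min, replicate 3. In WT, LEU3 read 1.05 in replicate 2 at 30 min. The deposited arrays are on different scales: 78 had a trimmed mean between 500.474 and 500.659, and the other 73, between 22.4 and 104, were all arrays of met31 and the double deletions, plus replicate 3 of gcn4 and of leu3. A double deletion set against WT therefore also sets unscaled arrays against scaled ones, and the difference of strain and the difference of deposited scale cannot be told apart. In gat1leu3, replicates 1 and 2 at 0 and 10 min went against their labels. Over the 71 genes that changed in WT by 10 min, their change had a correlation of -0.638 and -0.624 with that of WT. Replicate 3 had 0.680. The WT courses, in which these genes were picked, lay between 0.965 and 0.988. Replicate 3 of gat1gcn4 stood apart at 0.222, and the remaining courses lay between 0.557 and 0.805. The calls and counts of gat1leu3 are given with and without the 4 arrays of its replicates 1 and 2 at 0 and 10 min. Leaving them out leaves 1 array at 0 min that is taken to vary like the other groups. The labels do not say whether replicates were grown as separate cultures. The spread behind each p-value may thus be technical. They do say that the times of a course were drawn from 1 culture, and arrays of 1 strain and replicate number deviated together over the times, so fits with strain and number as a random replicate block are given where that changed a call. For the 6 genes it added calls in single comparisons and ended none.

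Before 3AT, ZRT1 and ZPS1 were the zinc genes that set the single deletions apart from WT. At 0 min the ZRT1 signal was 4365, 3793 and 3359 in WT. It was 1399, 849.8 and 1089.6 in gcn4, 872, 635 and 617 in leu3 and 594, 500.1 and 958 in gat1. All 9 single-deletion arrays were below all 3 WT arrays. The ratio to WT, taken back from the mean difference of log2(signal + 16), was 0.289 in gcn4, 0.187 in leu3 and 0.176 in gat1. On that log2 scale, where every difference and test below was made, gcn4 was lower by 1.79 (a change of -1.79 ± 0.46, SE; adjusted p = 0.00602 by limma with Benjamini-Hochberg adjustment over 5611 genes). The change was -2.42 ± 0.46 in leu3 (adjusted p = 0.000646) and -2.51 ± 0.46 in gat1 (adjusted p = 0.000678). Between scaled arrays alone the changes were -1.79, -2.33 and -2.51, each past the threshold of 0.05. All arrays of WT and gat1 are scaled, so for gat1 this setting compared the same arrays and altered the estimated spread. The leu3 and gat1 calls held in all 12 fits that left out a replicate or a 0 min array. In this and all other comparisons at 0 min, leaving out a replicate or its 0 min array alone gives the same change. The 12 fits are thus not 12 separate checks. The gcn4 call held in 9 of 12 and was lost without WT replicate 1 (adjusted p = 0.0549), without gcn4 replicate 2 (adjusted p = 0.0960) and without its 0 min array alone (adjusted p = 0.0881). These comparisons, and all others at 0 min, share the 3 WT arrays. On another ZRT1 probe set, read near background with a median of 74.2, the direction was the opposite, with changes of 1.14 in gcn4, 1.36 in leu3 and 1.22 in gat1. The cause was not tested. The remaining ZRT1 probe sets, marked as shared, had medians of 1293 and 927 and correlations of 0.83 and 0.86 with the one used. No call was reversed on them.

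**Figure D1:**
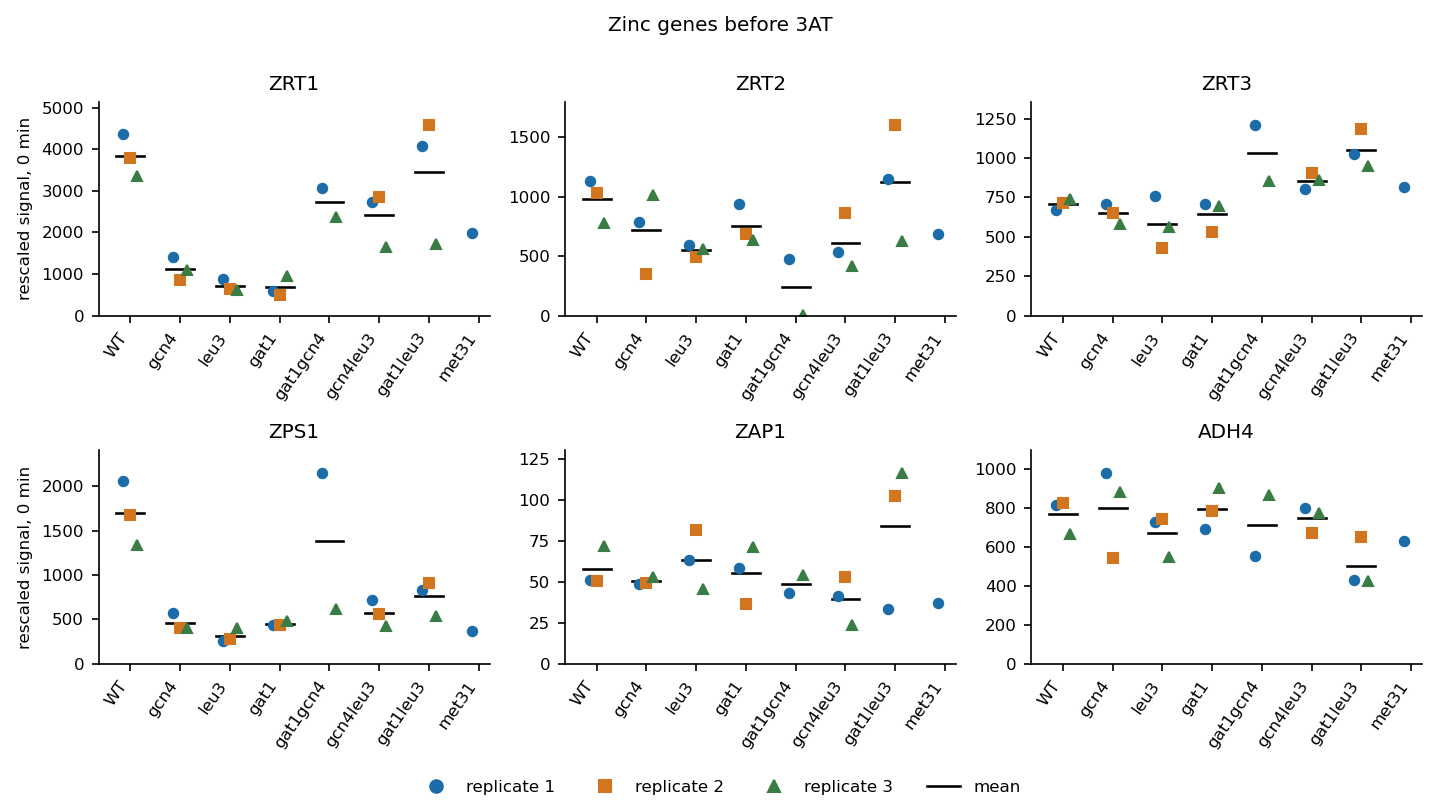
Signal of each zinc gene at 0 min by strain, in arbitrary array units on a linear axis, with 1 point per array and a line at the mean. The ZRT1 panel shows WT at 3359 to 4365 and all arrays of gcn4, leu3 and gat1 at 1399 or below, with the double deletions between 1658 and 4587.

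ZPS1 too was lower in the single deletions, at lower signals. Its 0 min signal was 2063, 1676 and 1344 in WT. It was 570.2, 404 and 401 in gcn4, 256, 283 and 400.1 in leu3, and 434, 437 and 485 in gat1. Again no single-deletion array reached the lowest WT array. The change against WT was -1.85 ± 0.46 in gcn4 (adjusted p = 0.00460) and -2.38 ± 0.46 in leu3 (adjusted p = 0.000981), both past the threshold. In gat1 it was of the same size, -1.85, and missed the threshold over all arrays (adjusted p = 0.110), while scaled arrays alone (adjusted p = 0.000856) and the replicate block (adjusted p = 0.00941) put it past it. Scaled arrays alone again compared the same gat1 and WT arrays. Over all genes that setting raised the calls of the single deletions at 0 min from 287 to 1145. The leu3 call held in 12 of 12 fits with a replicate or 0 min array left out. The gcn4 call held in 9 of 12, and was lost without WT replicate 1 (adjusted p = 0.0511), without gcn4 replicate 2 (adjusted p = 0.0609) and without its 0 min array alone (adjusted p = 0.0513).

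Counted over the 6 genes, 2 passed the test at 0 min in gcn4, where 4.85% of all genes tested did, and 2 in leu3, where 0.178% did, or 10 genes. In gat1 1 of 6 passed, ZRT1, against 0.0891%, or 5 genes in all. The median change of the 6 genes was -0.35 in gcn4, -0.56 in leu3 and -0.26 in gat1, beside 0.01, -0.03 and 0.01 over all genes. ZRT3, ZAP1 and ADH4 passed in none of the 6 strains at 0 min.

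The double deletions had more ZRT1 signal at 0 min than the single ones. At 0 min the signal was 3066 and 2384 in gat1gcn4 and 2739, 2862 and 1658 in gcn4leu3. It was 4072, 4587 and 1724 in gat1leu3, where only the last array, replicate 3, is not doubted. Every double-deletion array thus lay above every single-deletion array. The log2 change against WT was -0.50 in gat1gcn4, -0.70 in gcn4leu3 and -0.26 in gat1leu3, none past the threshold, and -1.14 in gat1leu3 without the 4 doubted arrays (adjusted p = 0.518). From the lowest mean, the order at 0 min was gat1, leu3, gcn4, met31, gcn4leu3, gat1gcn4, gat1leu3 and WT. The arrays of gat1, leu3 and gcn4 overlap one another, as do those of the double deletions, and WT overlaps gat1leu3 alone.

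A double deletion was also set against the sum of its single deletions, which asks whether the changes against WT add up on the log2 scale. For ZRT1 the double lay above the sum by 3.80 ± 0.69 in gat1gcn4 (adjusted p = 0.000130), by 3.52 ± 0.65 in gcn4leu3 (adjusted p = 0.000513) and by 4.67 ± 0.65 in gat1leu3 (adjusted p = 3.11e-07), which fell to 3.79 without the doubted arrays (adjusted p = 0.00322). Each of these calls held in every fit with a replicate or 0 min array left out. For ZPS1 the double lay above the sum by 3.17 in gat1gcn4 (adjusted p = 0.00252), 2.67 in gcn4leu3 (adjusted p = 0.0105) and 3.08 in gat1leu3 (adjusted p = 0.00225). The ZPS1 call in gat1gcn4 was lost without its 0 min array of replicate 1 (2.29, adjusted p = 0.101), that in gcn4leu3 without the gcn4 0 min array of replicate 2 (adjusted p = 0.0749), and that in gat1leu3 without the doubted arrays (2.63, adjusted p = 0.0941). So 2 of 6 genes passed in each double deletion, where 3.35%, 3.03% and 3.23% of all genes did. All doubles are on unscaled arrays and all 0 min arrays of WT and gat1 on scaled ones.

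After 3AT, ZRT1 in WT went down and came back. The WT signal was 3127, 2588 and 2558 at 10 min, then 2286, 1388 and 1628 at 20 min, then 1569, 1584 and 2534 at 30 min, then 1414, 1150.1 and 1223 at 45 min. It was 1902, 1630.5 and 2026 at 60 min, then 4435, 3809 and 4999.7 at 90 min, then 4830.2, 5485 and 4683 at 120 min. From 10 to 60 min every WT array was below the lowest one of 0 min, and at 120 min every one was above the highest. The F-test over all times passed (adjusted p = 0.00241). No single time passed against 0 min over all arrays, the change at 45 min being -1.59 (adjusted p = 0.0636, and 0.00680 with the replicate block). On scaled arrays alone 4 times did, with changes of -1.14 at 20 min (adjusted p = 0.00471), -1.04 at 30 min (adjusted p = 0.0138), -1.59 at 45 min (adjusted p = 5.48e-05) and -1.04 at 60 min (adjusted p = 0.0192). All WT arrays are scaled, so this setting left the WT values and changes as they were and altered the estimated spread. It raised the calls against 0 min over all genes from 3368 to 10455 in WT and the single deletions. The shares by strain given below are not from this setting.

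In gcn4 and gat1, ZRT1 started low and rose within 10 min instead. The gcn4 signal was 4595, 3628 and 4139.6 at 10 min, then 3605, 3305 and 4236 at 20 min, then 3107, 3359.5 and 3727 at 30 min. It then went to 1856, 1406 and 3445 at 45 min and 755 and 2866 at 60 min. Later it was 1855, 1533 and 3502 at 90 min and 2351, 1573 and 3753 at 120 min. The last value at each time is replicate 3, on unscaled arrays, which from 45 min on read above the scaled replicates. The gat1 signal was 3135, 2259 and 2272 at 10 min, then 3399 and 2514 at 20 min, then 5598, 4463 and 2029.9 at 30 min. It stayed above the 0 min arrays later, at 3386, 2783 and 2487 at 45 min, then 2401, 1184 and 1633 at 60 min, then 4474, 3536 and 2774 at 90 min, then 3531, 2978 and 2363 at 120 min. No array of gat1 after 3AT overlapped those of 0 min. In gcn4 only the arrays of 60 min did, and at 45 min the gap was narrow, 1406 against 1399 at 0 min.

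ZRT1 in gcn4 rose by 1.90 at 10 min (adjusted p = 0.00310), 1.75 at 20 min (adjusted p = 0.0138) and 1.62 at 30 min (adjusted p = 0.0281), each with an SE of 0.46. In gat1 it rose by 1.91 at 10 min (adjusted p = 0.00862), 2.46 at 30 min (adjusted p = 0.000262), 2.09 at 45 min (adjusted p = 0.00229) and 2.39 at 90 min (adjusted p = 0.000560), and also at 20 and 120 min, but did not pass at 60 min. With the replicate block ZRT1 also passed in gat1 at 60 min (1.32, adjusted p = 0.0260) and in gcn4 at 120 min (1.13, adjusted p = 0.0422). Without replicate 1 or replicate 2 of the strain, all of these calls were lost, with adjusted p-values of 0.0648 to 0.358 in gat1 and 0.0759 to 0.470 in gcn4, and changes of at least 1.45. The gcn4 call at 30 min was lost without replicate 3 as well (adjusted p = 0.0737).

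**Figure D2:**
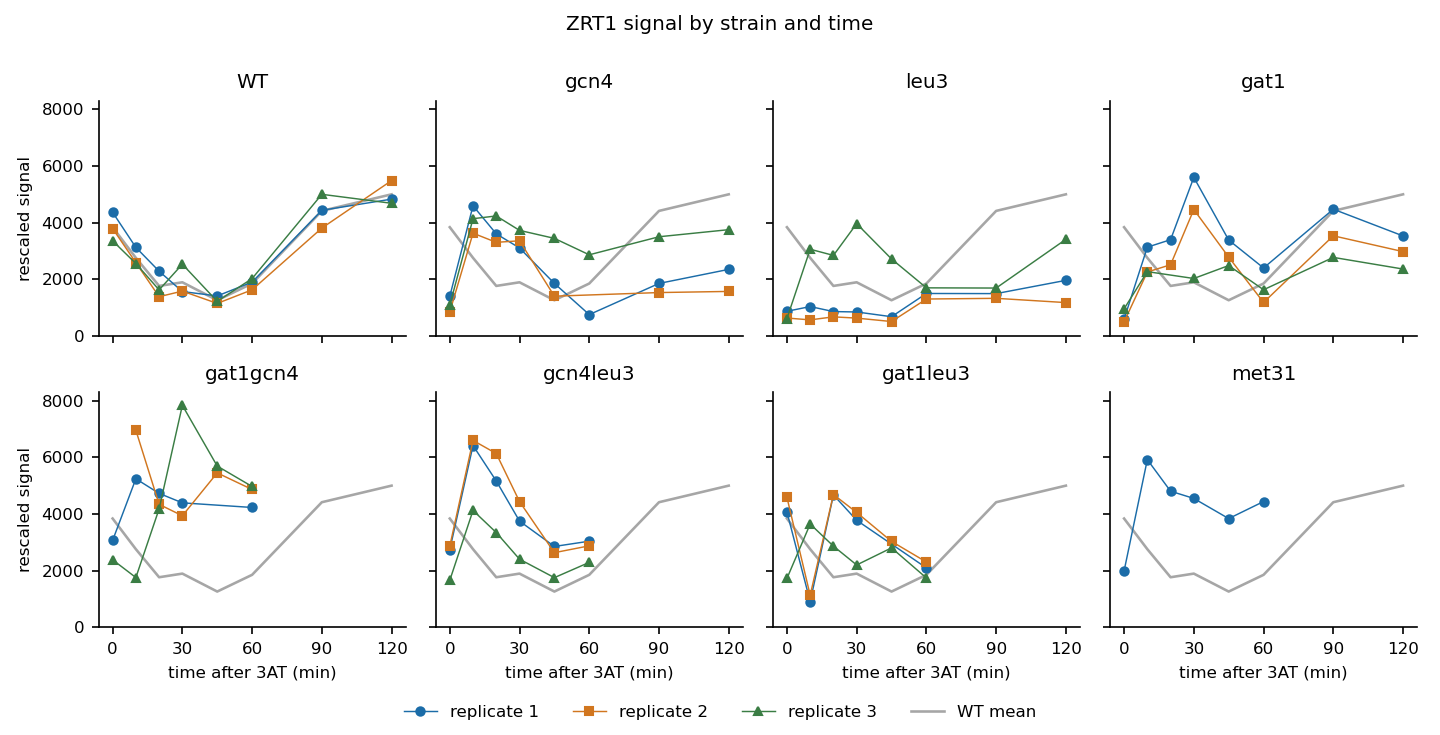
ZRT1 signal against minutes after 3AT, on a linear axis, in a panel per strain with each replicate number as a coloured line and the WT mean in grey. In WT the signal falls to 1150.1 to 1414 at 45 min and returns, gat1 and gcn4 climb from 1399 or below at 0 min, and in leu3 replicate 3 runs apart from replicates 1 and 2.

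The changes themselves differed between strain and WT at some times. At 60 min, the time first set for this comparison, ZRT1 and ZPS1 passed in 0 of 6 strains without the replicate block. The comparisons at 10 to 45 min were added after seeing the data. Relative to the WT change over the same time, ZRT1 in gat1 rose more by 3.26 ± 0.69 at 20 min (adjusted p = 0.00942), 3.50 ± 0.65 at 30 min (adjusted p = 0.00228) and 3.68 ± 0.65 at 45 min (adjusted p = 0.000675). In gcn4 it rose more by 2.88 ± 0.65 at 20 min (adjusted p = 0.0175) and 2.66 ± 0.65 at 30 min (adjusted p = 0.0343). The gat1 call at 45 min held in all 6 fits with a replicate left out. The others were lost in 4 or 5 of 6, with adjusted p-values up to 0.480, and the gcn4 call at 30 min also without the WT array in which LEU3 read near 0 (2.55, adjusted p = 0.0950). In gat1 2 of the 6 genes passed at 1 or more times from 10 to 60 min, ZRT1 and ZPS1, where 0.178% of all genes or 10 genes did, and in gcn4 1 of 6, where 1.09% did. With the replicate block ZRT1 in gcn4 also passed at 10 min (2.37, adjusted p = 0.0255) and 45 min (2.51, adjusted p = 0.00600), in gat1 at 10 min (2.39, adjusted p = 0.0269) and 60 min (2.36, adjusted p = 0.0398), in gat1gcn4 at 45 min (2.62, adjusted p = 0.00643) and in gcn4leu3 at 20 min (2.14, adjusted p = 0.0263). Each such difference holds the 0 min difference described above within it, with the same arrays.

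In leu3 the replicates disagreed on ZRT1. From 10 to 45 min replicates 1 and 2, on scaled arrays, read 511 to 1039, below every WT array of those times, and replicate 3, on unscaled arrays, 2719 to 3965, above every WT array from 20 to 45 min. No time passed against 0 min or against WT over all arrays, though the rise to 120 min did with the replicate block (1.49, adjusted p = 0.0124). On scaled arrays alone ZRT1 was lower than WT at 10 min by 1.81 (a change of -1.81, adjusted p = 1.62e-05) and at 120 min (-1.70, adjusted p = 0.000364), and over the mean of 0 to 60 min (-1.35, adjusted p = 0.000313). Over all arrays that mean change was -0.88 ± 0.29 (adjusted p = 0.208).

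ZRT1 was higher than WT after 3AT in gat1gcn4 and gcn4leu3. In gat1gcn4 the signal was 5241, 6954 and 1757 at 10 min, then 4726, 4339 and 4179 at 20 min, then 4392, 3937 and 7833 at 30 min, then 5449 and 5690.0 at 45 min, then 4229, 4864 and 4969 at 60 min. From 20 to 60 min all of these arrays exceeded all WT arrays of the same time. The change against WT was 1.34 at 20 min (adjusted p = 0.0314), 1.47 at 30 min (adjusted p = 0.0215) and 2.13 at 45 min (adjusted p = 0.00758), and at 30 min it missed the threshold without the WT array in which LEU3 read near 0 (1.36, adjusted p = 0.0986). At 60 min it passed with the replicate block (1.33, adjusted p = 0.0357). Median centring also ended the 20 min call (1.24, adjusted p = 0.0649). The 20 min call held in 2 of 6 fits with a replicate left out, the 30 min call in 3 and the 45 min call in 5, the exception being gat1gcn4 replicate 2 (adjusted p = 0.0577). Averaged over 0 to 60 min by replicate number, ZRT1 was higher by 1.09 ± 0.29 (adjusted p = 0.0123, n = 3 against 3 in the limma fit), which was lost without WT replicate 2 (adjusted p = 0.0539) or gat1gcn4 replicate 2 (adjusted p = 0.0733). Replicate 2 has no array at 0 min, where the others read below every WT array, and replicate 1 none at 45 min. The means of replicates 1, 2 and 3, 0.90, 1.45 and 0.94, thus cover different times.

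In gcn4leu3 ZRT1 read 6415, 6595 and 4124 at 10 min and 5163, 6132 and 3344 at 20 min. These arrays too were above all WT arrays of their time. The change against WT at 20 min was 1.44 ± 0.46 (adjusted p = 0.0348), a call that held in 1 of 6 fits with a replicate left out (adjusted p up to 0.172) and was lost under median centring (1.31, adjusted p = 0.0879). Against 0 min the rise at 10 min passed with the replicate block (1.24, adjusted p = 0.0323). Counts over the 6 genes show how many other genes moved in these strains. At 1 or more times after 3AT 2 of 6 genes, ZRT1 and ZRT3, passed against WT in gat1gcn4, where 29.9% of all genes did, and the same pair in gcn4leu3, where 15.6% did. The gat1gcn4 share is near its background.

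Within strains, gat1 had 2 of 6 genes past the threshold at 1 or more times against 0 min, ZRT1 and ZPS1, where 7.22% of all genes passed. In gcn4 it was 1 of 6, ZRT1, against 15.8%, and in gat1gcn4 1 of 6, ZRT2, against 3.62%. The ZRT2 calls rest on the 0 min array of replicate 3, which read 0.752, and without that replicate the rises were 0.19 to 0.85. WT had 0 of 6 by limma, where 4.63% of all genes passed, and 3 of 6 at an unadjusted p under 0.05. All shares of all genes are at the adjusted threshold. None was counted at an unadjusted p, so the unadjusted counts have no matching share. The count was 0 of 6 in leu3 (3 unadjusted, 4.24% of all genes), in gcn4leu3 (1 unadjusted, 4.83%) and in gat1leu3 (2 unadjusted, 7.82%, and again 0 of 6 without the doubted arrays, with 1 unadjusted). With the replicate block ZRT1 and ZRT2 passed in WT, ZRT1 and ZRT3 in leu3 and ZRT1 in gcn4leu3, at the times given beside each gene, and over all genes and strains it raised the calls against 0 min from 5175 to 10377. The shares of all genes by strain given above are without the block, so these added calls have no matching share. By the F-test over times 1 of 6 passed in WT against 7.2% of all genes, 1 in gcn4 against 11.2%, 2 in gat1 against 10.4% and 1 in gat1gcn4 against 5.01%. The gene in gat1gcn4 was again ZRT2, with the array of 0.752 among its values.

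ZPS1 also rose in gat1. Its signal there was 1043, 783 and 739 at 10 min, then 1158 and 1485 at 20 min, then 2618, 2697 and 1595 at 30 min, then 2440.1, 2688 and 1673 at 45 min. By 90 min it was 705, 734 and 920.0 and by 120 min 602, 636 and 684. Every array after 3AT lay above the 3 arrays of 0 min, and those of 30 and 45 min lay highest. The change was 2.27 ± 0.46 at 30 min (adjusted p = 0.000884) and 2.26 ± 0.46 at 45 min (adjusted p = 0.000844), and the F-test passed (adjusted p = 0.000210). The changes at 20 min (1.47, adjusted p = 0.0196) and 60 min (1.30, adjusted p = 0.0160) passed with the replicate block. Both single-time calls were lost without replicate 1 or 2 of gat1 (adjusted p from 0.0520 to 0.0873). Relative to WT the change at 45 min was larger by 3.01 ± 0.65 (adjusted p = 0.0276), which held in 2 of 6 fits with a replicate left out. It was also larger at 30 min (2.61, adjusted p = 0.00157) and 60 min (2.26, adjusted p = 0.0376) with the replicate block.

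**Figure D3:**
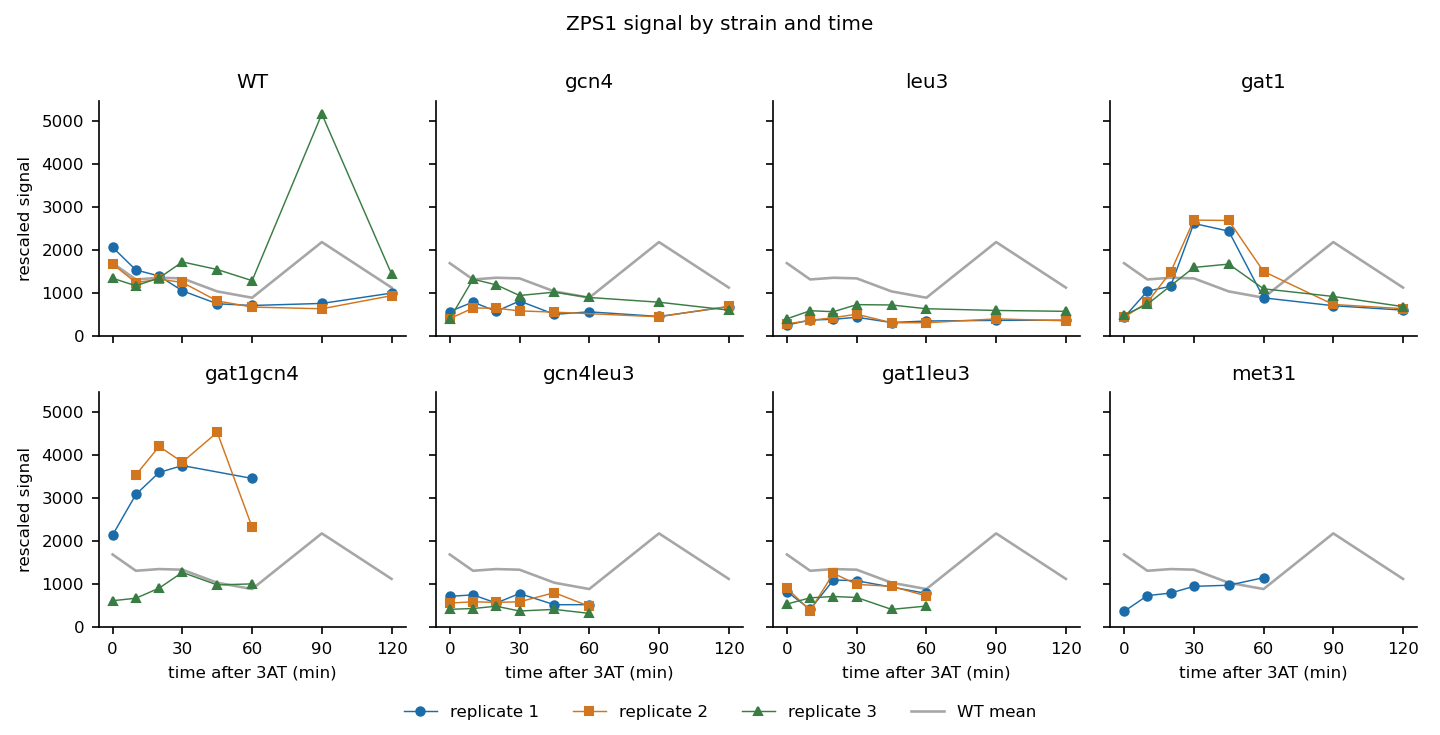
ZPS1 signal against minutes after 3AT, on a linear axis, laid out as for ZRT1. The gat1 panel peaks at 1595 to 2697 at 30 and 45 min, leu3 stays at 730.0 or below in every array, and in gat1gcn4 replicates 1 and 2 run at 2148 or above and replicate 3 at 1279 or below.

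ZPS1 stayed low in leu3. Over all 8 times its signal there ran from 256 to 730.0, and WT ran from 634 to 5164, the highest being replicate 3 at 90 min, where the other WT arrays read 758 and 634. At 20 min leu3 read 389, 426 and 566 and WT 1395, 1320.2 and 1351, with no overlap. That change was -1.54 ± 0.46 (adjusted p = 0.0366) and held in 1 of 6 fits with a replicate left out. The changes at 10 min (-1.57, adjusted p = 0.0215) and 90 min (-1.59, adjusted p = 0.0480) passed with the replicate block. It was 1 of 6 genes to pass against WT after 3AT in leu3, where 6.01% of all genes did. The mean change over 0 to 60 min was -1.50 ± 0.36 (adjusted p = 0.0712) and passed on scaled arrays alone (-1.74, adjusted p = 6.94e-06) and without replicate 3 of leu3 (-1.74, adjusted p = 0.0248).

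In gcn4leu3 ZPS1 read 722, 564 and 419 at 0 min, below every WT array, a change of -1.56 ± 0.46 (adjusted p = 0.0354), and was lower over the mean of 0 to 60 min by 1.15 (a change of -1.15 ± 0.36, adjusted p = 0.0419). The 0 min call was lost without any 1 of the 6 arrays (adjusted p from 0.0532 to 0.177), and the mean was lost in all 6 fits with a replicate left out (adjusted p from 0.0692 to 0.160). In gat1gcn4 the replicates stood apart: replicates 1 and 2 read 2148 to 4536 and replicate 3 read 619 to 1279. Without replicate 3 the mean change over 0 to 60 min was 1.47 (adjusted p = 0.000291), against 0.83 with it (adjusted p = 0.109). Replicates 1 and 2 each lack an array among these times. With the replicate block ZPS1 passed against WT at 60 min in gat1gcn4 (1.23, adjusted p = 0.0381), at 20 min in gcn4leu3 (-1.29, adjusted p = 0.0278) and at 10 min in gat1leu3 (-1.41, adjusted p = 0.0316, with doubted arrays among them). At 0 min 1 of 6 genes passed in gcn4leu3, where 3.37% of all genes did, and 0 of 6 in gat1leu3 by limma, where 6.68% did. At an unadjusted p under 0.05 it was 3 of 6 in gat1leu3, with no matching share of all genes. Without the doubted arrays it was again 0 of 6 in gat1leu3, with 1 at an unadjusted p under 0.05.

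ZRT2 in WT had a short dip. Its signal was 1131, 1031 and 779.9 at 0 min, then 498, 418 and 239 at 10 min, then 245, 366 and 336 at 20 min, then 501, 345 and 574 at 30 min. By 90 min it was back at 884, 926 and 1426. The 10, 20 and 30 min arrays lay below all arrays of 0 min. The change at 20 min was -1.59 (adjusted p = 0.101), which missed the threshold over all arrays and passed with the replicate block (adjusted p = 0.0196). On scaled arrays alone it passed (adjusted p = 0.000997), as did that at 10 min (-1.36, adjusted p = 0.00852). That setting holds the same WT arrays and altered the estimated spread.

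**Figure D4:**
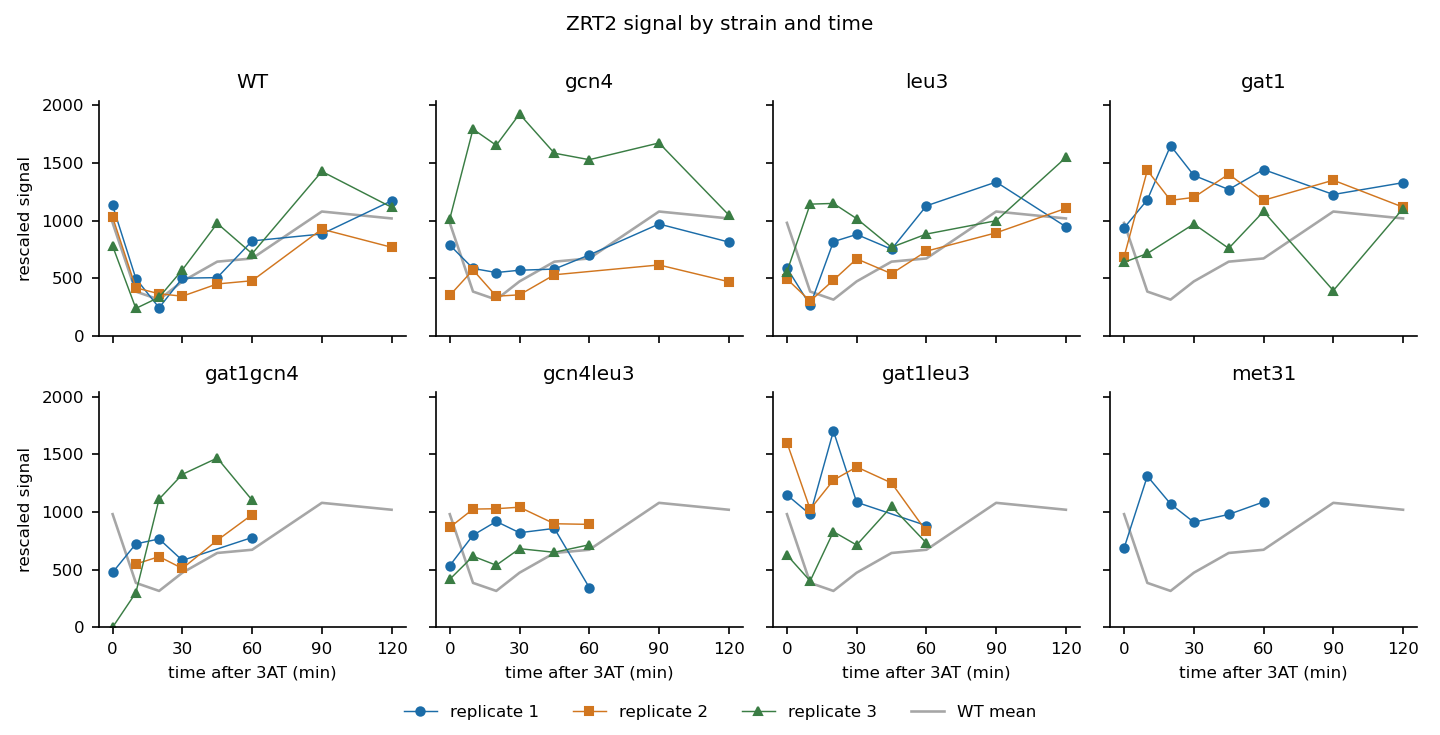
ZRT2 signal against minutes after 3AT, on a linear axis, laid out as for ZRT1. WT dips to 239 to 498 at 10 min, gat1 at 1175 or more lies above every WT array at 20 min, gcn4 replicate 3 runs above the other replicates, and the gat1gcn4 array of 0.752 at 0 min lies at the bottom of its panel.

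At 20 min ZRT2 was higher than WT in gat1 and gat1leu3. In gat1 the signal was 1649.5 and 1175, and in gat1leu3 it was 1701, 1276 and 829. None of these arrays overlapped the 245 to 366 of WT. The change was 2.11 ± 0.60 in gat1 (adjusted p = 0.0481) and 1.91 ± 0.53 in gat1leu3 (adjusted p = 0.0235, and 0.0217 without the doubted arrays). The gat1 call held in 0 of 6 fits with a replicate left out (adjusted p from 0.0518 to 0.362) and the gat1leu3 call in 1 of 6. The fit of scaled arrays alone, which holds the same gat1 and WT arrays, gave gat1 an adjusted p of 0.000114 at the same size. These were 1 of 6 genes in each strain to pass against WT after 3AT, where 4.78% of all genes passed in gat1 and 8.96% in gat1leu3. In gcn4 0 of 6 did by limma, where 7.59% of all genes did. At an unadjusted p under 0.05 it was 4 of 6, with no matching share of all genes.

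The largest ZRT2 differences rest on 1 array. In gat1gcn4 the 0 min arrays read 476 and 0.752, the lower of which is under the background level of every array, 13.0 to 31.4. With both, ZRT2 was lower than in WT (a change of -3.44 ± 0.60, adjusted p = 1.42e-05) and rose by 2.49 at 10 min, 3.18 at 20 min, 3.05 at 30 min, 3.56 at 45 min and 3.40 at 60 min. Without replicate 3 the change against WT was -1.001 (adjusted p = 0.418) and the rises were 0.39, 0.51, 0.19, 0.65 and 0.85, with 0 of these 6 past the threshold. The same holds for the difference from the WT change, 3.84 to 4.77 with that replicate and 1.23 to 2.10 without. So the single gene of 6 called at 0 min in gat1gcn4, where 4.38% of all genes were, and the single one of 6 whose change differed from that of WT, where 2.07% did, is ZRT2 on that array. The difference of ZRT2 in gat1gcn4 from the sum of the single deletions was -2.59 with the replicate block (adjusted p = 0.0276) and -0.077, without the block, when replicate 3 was left out. In gcn4, replicate 3, on unscaled arrays, read 1015 to 1924 from 0 to 120 min and replicates 1 and 2 read 345 to 971.

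ZRT3 was higher than WT in the double deletions. Within a strain it passed no test over time in the fit of all arrays without the replicate block, and a rise of 0.83 to 120 min in leu3 passed with it (adjusted p = 0.0173). Its SD over the 50 strain and time means was 0.28 in log2 units, beside 0.77 for ZRT1 and 0.64 for ZRT2. In WT it read 668, 717 and 742 at 0 min, then 616, 838 and 699.7 at 20 min, then 880.3, 331 and 906 at 30 min, then 704, 622 and 406 at 45 min, then 719.5, 659 and 518 at 60 min. In gat1gcn4 it read 1209 and 854 at 0 min, then 1244, 1115 and 1099 at 20 min, then 1052, 1479 and 1061 at 30 min, then 1419 and 1099 at 45 min, then 1198, 1294 and 1211 at 60 min. No gat1gcn4 array at these times overlapped WT. The change against WT was 0.68 at 20 min (adjusted p = 0.0385), 0.86 at 30 min (adjusted p = 0.00887), 1.13 at 45 min (adjusted p = 0.00716) and 0.96 at 60 min (adjusted p = 0.00512), with SEs of 0.24 to 0.27. The 60 min call held in 6 of 6 fits with a replicate left out, the 30 and 45 min calls in 4 and the 20 min call in 2. At 30 min the WT array in which LEU3 read near 0 also had the lowest WT signal of ZRT3, 331, and without it the change was 0.40 (adjusted p = 0.397).

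Averaged over 0 to 60 min, ZRT3 was higher than WT by 0.81 ± 0.15 in gat1gcn4 (adjusted p = 0.000632), 0.59 ± 0.15 in gcn4leu3 (adjusted p = 0.0115) and 0.59 ± 0.15 in gat1leu3 (adjusted p = 0.0203, and 0.65 with 0.0102 without the doubted arrays). Replicates 1 and 2 of gat1gcn4 and replicate 1 of gat1leu3 each lack an array among these times. The gat1gcn4 call held in 6 of 6 fits with a replicate left out, that of gcn4leu3 in 4 (adjusted p up to 0.0616) and that of gat1leu3 in 3 (adjusted p up to 0.115). In gcn4leu3 it was also higher at 45 min, with signals of 1013, 1127 and 1148 against 704, 622 and 406 in WT, a change of 0.94 ± 0.24 (adjusted p = 0.00728). That call was lost without WT replicate 3 (adjusted p = 0.113) and under median centring (adjusted p = 0.0760), which also moved the gcn4leu3 mean to 0.43 (adjusted p = 0.0509). By the mean over 0 to 60 min 2 of 6 genes passed in gat1gcn4, where 20.1% of all genes did, 2 in gcn4leu3, where 12% did, and 1 in gat1leu3, where 6.02% did, so the ZRT3 differences come from strains in which many genes differed from WT. The median change over all genes was 0.10 in gat1gcn4, 0.10 in gcn4leu3 and -0.06 in gat1leu3. In the single deletions the mean ZRT3 change was 0.35 in gcn4, 0.15 in leu3 and 0.36 in gat1, none past the threshold.

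**Figure D5:**
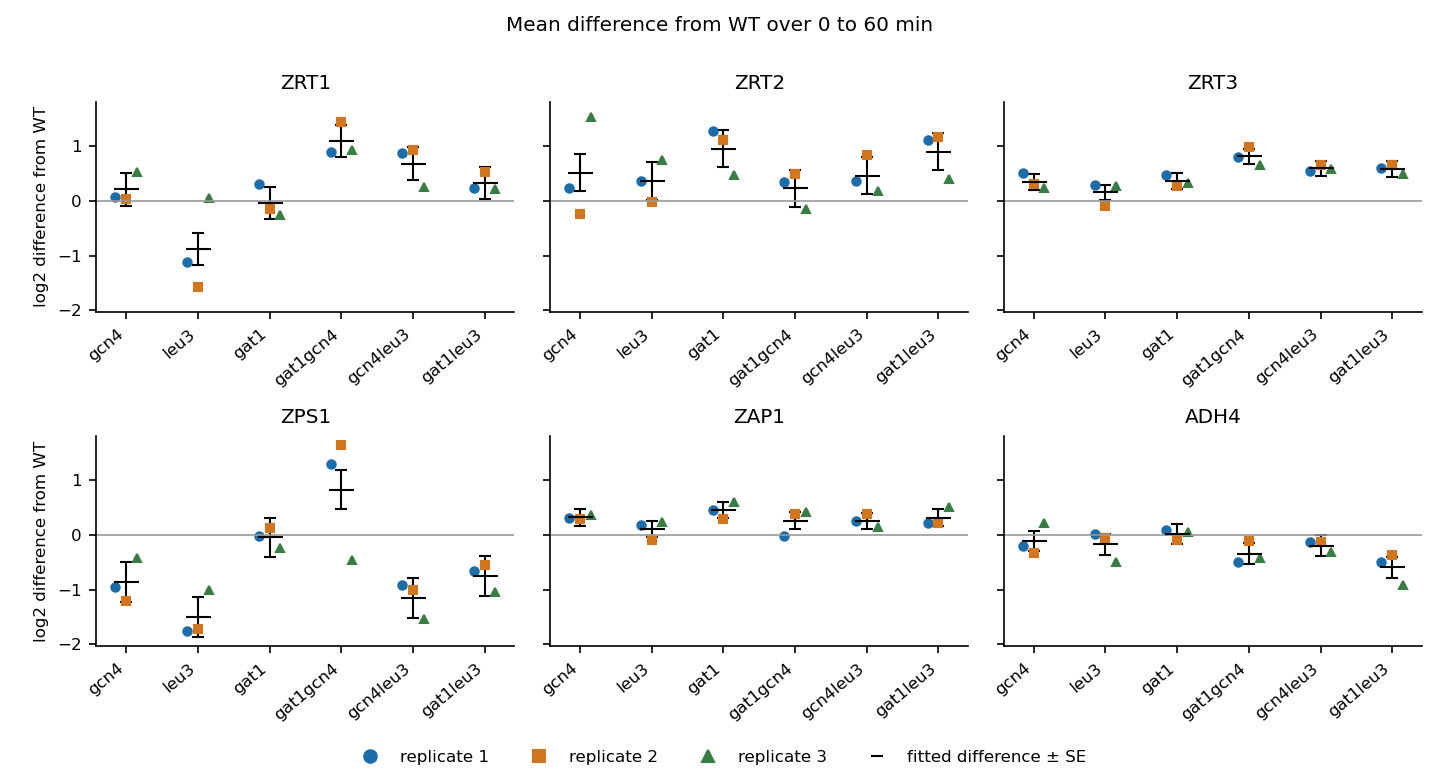
Mean difference from WT over 0 to 60 min, in log2 units of signal + 16, for each zinc gene and deletion strain, with 1 point per replicate number and, as bars, the fitted difference ± SE. A replicate with a missing array is averaged over the times it has. ZRT3 lies above 0 in the double deletions, with means of 0.59 to 0.81, and ZPS1 is lowest in leu3, with a mean of -1.50.

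ZAP1 and ADH4 passed no test. ZAP1 was read near background on this array, with a median signal of 59.1 and 144 of 151 arrays above the floor of their array (the 20th percentile of its probe sets, 13.0 to 31.4). At 0 min it read 51.3, 50.6 and 72.3 in WT, 48.8, 49.5 and 52.9 in gcn4, 63.6, 81.9 and 45.6 in leu3, and 58.5, 36.5 and 71.5 in gat1. These groups overlapped. Its lowest adjusted p, 0.0955, was for gat1 against WT at 10 min, where gat1 read 92.4, 83.4 and 86.1 and WT 65.2, 15.4 and 19.5 (a log2 change of 1.20). On scaled arrays alone, a setting that holds the same arrays of both groups, that p was 0.0475. Of 131 comparisons limma called 0 for ZAP1, with 9 at an unadjusted p under 0.05.

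ADH4 read 815, 826 and 665 at 0 min in WT, 978, 543 and 879.6 in gcn4, 727, 744 and 547 in leu3, 691, 784 and 903 in gat1, and 430.2, 649 and 422 in gat1leu3. Only gat1leu3 lay wholly below WT, and its first 2 arrays are doubted ones. Its mean change over 0 to 60 min in gat1leu3, -0.59 ± 0.19, had the lowest adjusted p of the 131 comparisons for this gene, 0.0603 (-0.54 with 0.0801 without the doubted arrays), and again 0 were called and 9 were at an unadjusted p under 0.05. ADH4 and ZRT1 are neighbours on chromosome VII with 0 protein-coding genes between them. Over the 50 strain and time means their correlation was -0.04.

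Of the probe sets for 1 gene, 4 were annotated to ZRT1 and 2 to ADH4. Against the ZRT1 probe set used here, over 151 arrays, the correlation of log2 signals was 0.83 and 0.86 for 2 of the others and -0.30 for the third, which was near background with a median of 74.2. The other ADH4 probe set was above the floor in 45 of 151 arrays, with a correlation of -0.05.

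The met31 course, 1 array a time, gave ZRT1 signals of 1989 at 0 min and 5918, 4803, 4548, 3837 and 4438 from 10 to 60 min. The array of 0 min lies below all WT arrays and the later ones above all WT arrays of their time. ZPS1 read 369.8 at 0 min and 737, 798, 953, 979 and 1155 after. There is no replicate, and the arrays are unscaled, as are those of the double deletions.

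Other zinc transport and homeostasis genes changed in both directions. Of 10, all tested, 3 passed in WT at 1 or more times against 0 min, where 4.63% of all genes did. The vacuolar zinc transporter gene COT1 rose by 1.52 at 20 min, the zinc-related membrane protein gene IZH4 was higher at 120 min, with a mean signal of 352 against 49.7 at 0 min, and its relative IZH2 fell by 1.47 at 20 min. In gat1 4 of 10 did, where 7.22% of all genes did: FET4, which encodes a low-affinity iron transporter that also carries zinc, rose by 1.65 at 60 min and 1.90 at 120 min, the vacuolar zinc transporter gene ZRC1 fell by 0.80 at 20 min and also at 30 and 90 min, IZH2 fell by 2.03 at 20 min, and IZH4 fell at 30 min, to near background, with 1 of 3 arrays above its floor. In gcn4 FET4 rose by 1.53 and ZRG17, of the secretory pathway zinc transport complex, by 0.85, both at 10 min, 2 of 10 where 15.8% of all genes passed, and in leu3 FET4 rose by 1.70 at 120 min, 1 of 10 where 4.24% did. IZH2 fell in gat1gcn4 by up to 1.93 at 45 min, 1 of 10 where 3.62% did, and IZH2 and IZH4 fell in gcn4leu3 by up to 2.13 at 60 min and 2.41 at 45 min, 2 of 10 where 4.83% did. In gat1leu3 IZH1 and IZH2 fell by 2.14 and 1.49 at 60 min, and by 2.45 and 2.17 without the doubted arrays, where both still passed, 2 of 10 where 7.82% did over all arrays. Most of these calls are fragile: of those named, IZH2 in gcn4leu3 and IZH1 in gat1leu3 at 60 min held in 3 of 3 fits with a replicate left out.

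Of 17 further genes reported as targets of the zinc regulator, 16 were tested. At 1 or more times against 0 min 3 of 16 fell in gat1, where 7.22% of all genes passed in either direction: RAD27, a flap endonuclease of DNA replication, fell by 1.72 at 20 min, the purine synthesis gene ADE17 by 1.30 at 10 min and the ethanolamine kinase gene EKI1 by 0.92 at 45 min. In gcn4 2 of 16 fell, near the 15.8% of all genes, the lipid phosphatase gene DPP1 by 0.97 at 10 min and the pyrimidine synthesis gene URA10 by 1.13 at 90 min, and in gcn4leu3 the mitochondrial alcohol dehydrogenase gene ADH3 rose by 0.92 at 45 min, 1 of 16 where 4.83% did. With a replicate left out the EKI1 call held in 2 of 3 fits and the other 5 in 1 of 3, with an adjusted p of up to 0.882 for URA10. Against WT after 3AT, gat1gcn4 had 5 of 16 past the threshold, where 29.9% of all genes did, a share near that background, with URA10 higher by 1.19 at 60 min (held in 3 of 6 such fits), ZRG8 higher at 60 min (2 of 6), where 2 of 3 WT arrays were above their floor, and ADE17, TSA1, a peroxiredoxin, and the mannosyltransferase gene MNT2 (4 of 6) lower. TSA1 held in 6 of 6 at 30 min and in 4 of 6 at 20 min. ADE17 was lower by 1.47 at 20 min (a change of -1.47, adjusted p = 0.00145) and held in 6 of 6 fits with a replicate left out. ZRG17 was 1 of 10 in the first list there, higher by 1.23 at 20 min (adjusted p = 0.00116), and also held in 6 of 6, but 1 of 10 is below the 29.9% of all genes.

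Likeness was measured as the Pearson correlation of mean log2(signal + 16) over the 50 strain and time means, which share arrays, scale class and 0 min samples. The genes most like ZRT1 were ZRT3 (0.66), TRM112 (0.63), ZPS1 (0.62), YNL050C (0.60) and YCR087C-A (0.60), so 2 of its 5 nearest were zinc genes described here. The nearest to ZPS1 were FSF1 (0.81), TAT1 (0.75), DRE2 (0.74), OAC1 (0.74) and LEU1 (0.70). ZRT2 was nearest to BNA5 (0.77), GSP1 (0.75), URA8 (0.74), PER33 (0.73) and ERG20 (0.73), and its correlation with ZRT1 was 0.20. ZRT3 was nearest to GIS3 (0.80) and HXT2 (0.75), and ADH4 to SCS3 (0.77) and MNT2 (0.76). ZAP1 had no gene above 0.50, the value for IKS1.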

How the data were processed

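RNA of BY4741 and of deletion strains made in it was hybridised to 151 Affymetrix yeast arrays of 1 colour. Samples of 200 ml were drawn from a culture of 1.4 or 1.6 litres, and the target was biotinylated cRNA, per the labels. The authors deposited 1 linear intensity per probe set, made with MAS5, per the submitters' processing notes, which name no version. No 2 arrays were identical (0 pairs). The number of arrays, 2 or 3 a group, limits the precision, and the median SE of a difference of 3 against 3 arrays was 0.336 in log2 units.

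Each array was multiplied by 1 factor that sets its 2% trimmed mean to 500, because arrays were deposited on different scales. Genes were named through the platform annotation from the 6504 probe sets of 1 gene; of several for a gene, the one with the highest mean was used, taking first those not marked as shared. Genes were kept if above the array's 20th percentile in 2 of 3 (or 1 of 2) arrays of a group, which left 5611 of 5656. Tests used limma 3.58.1 in R 4.3.3 on log2(signal + 16), with all 145 arrays of 7 strains in 1 fit, 1 coefficient per strain and time (50 groups) and eBayes with an intensity trend, two-sided, adjusted by Benjamini-Hochberg over the genes of a comparison and called at 0.05. This scale understates changes of low signals. The mean over 0 to 60 min was fitted on 1 value per strain and replicate number. Each value averaged the arrays present, so a replicate with a missing array covers fewer times. Each of the 6 genes entered 131 comparisons. In data simulated for leu3 against WT at 0 min on 5611 genes, 45% of changes of 1 and 94% of changes of 2 log2 units were recovered, with 6 false calls. The simulated arrays were drawn independently, without shared cultures or differences of deposited scale, so these figures may not hold for the real arrays.

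The members, the 2 lists of other zinc genes and the rules were chosen with earlier results of these data known. Named are the 6 members, up to 4 genes a comparison from the lists, the 5 genes most like each member and the deleted genes. Alternatives were the values as deposited, median centring, quantile normalization, pseudocounts of 1 and 64, no filter, array quality weights, scaled arrays alone, replicate blocks, other probe sets, and each replicate left out. Added after seeing the data were the fits without the 4 gat1leu3 arrays and without the WT array of 30 min in which LEU3 read near 0, and the differences in change at 10 to 45 min. Same-numbered samples of WT and gcn4leu3 at 0 min deviated together in all 3 pairs (correlations from 0.142 to 0.382), and the block changed no call there; in the other strains at least 1 pair was under 0.1, so numbers were not taken to pair strains. Within a strain, times were drawn from 1 culture, per the labels' protocols, which tie no number to a culture. Same-numbered arrays correlated over 0.1 in 75 of 77 pairs of times in gcn4, 34 of 35 in gat1gcn4, 38 of 45 in gcn4leu3, 69 of 84 in leu3, 32 of 40 in gat1leu3, 56 of 84 in WT and 45 of 77 in gat1, so values with strain and number as a random replicate block are given where they change a call. Motifs and sequences were not analysed here.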

Additional observations from a re-analysis of the deposited data

Results flagged for a closer look

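Differences between the change in a deletion strain and the change in WT passed the test for 3 genes. Without the replicate block, those of ZRT1 and ZPS1 passed only at times added after seeing the data, and not at 60 min. For ZRT1 the change in gcn4 exceeded that in WT by 2.88 at 20 min and 2.66 at 30 min, and the change in gat1 exceeded it by 3.26 at 20 min, 3.50 at 30 min and 3.68 at 45 min, all in log2 units. For ZPS1 the change in gat1 exceeded that in WT by 3.01 at 45 min. For ZRT2 the change in gat1gcn4 exceeded it by 3.84 at 10 min, 4.77 at 20 min, 4.08 at 30 min, 4.22 at 45 min and 3.95 at 60 min, and none of these 5 passed without replicate 3, whose 0 min array read 0.752.

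The met31 arrays, in no comparison, read above the highest WT array of the same time for ZRT1, ZRT2, ZRT3 and ZAP1 at most times. ZPS1 and ADH4 did so at no time. This was not tested, and how many of all genes did so was not counted. The met31 arrays are unscaled and those of WT scaled, so the difference of strain and that of deposited scale cannot be told apart in these values. From 10 to 60 min ZRT1 read 5918, 4803, 4548, 3837 and 4438 and ZRT2 read 1310.2, 1069.6, 911, 978 and 1087. ZAP1 read 102, 145, 116, 102 and 113 over the same times. ZRT3 read 816 at 0 min and 888, 985, 1002, 923 and 985 after.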

How the results depend on the processing

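The 57 calls of single genes and comparisons kept their direction under median centring, quantile normalization, pseudocounts of 1 and 64, no filter, quality weights, replicate blocks, scaled arrays alone, and each replicate left out. Over all alternatives 836 repeats kept the call, 201 kept the direction and lost it, and 30 reversed, 14 of them on the deposited values without rescaling and 16 on the ZRT1 probe set near background.

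Without rescaling, unscaled arrays read lower by construction. The changes against WT became -2.01, -1.35 and -0.92 for ZRT1 in gat1gcn4 at 20, 30 and 45 min, -1.33 for ZRT1 in gcn4leu3 and -1.26 for ZRT2 in gat1leu3 at 20 min. For ZRT3 they became -2.54, -1.87, -1.82 and -1.78 in gat1gcn4 at 20, 30, 45 and 60 min and -1.95 in gcn4leu3 at 45 min. Over the mean of 0 to 60 min they became -1.92 for ZRT1 in gat1gcn4, and for ZRT3 -2.10 in gat1gcn4, -2.13 in gcn4leu3 and -2.51 in gat1leu3.

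On the ZRT1 probe set near background, the change at 0 min against WT was 1.14 in gcn4, 1.36 in leu3 and 1.22 in gat1, and the excess of the doubles over the sum was -2.20, -1.43 and -1.22. The change against 0 min was -0.49 in gcn4 at 30 min and -0.44, -0.037 and -0.20 in gat1 at 30, 45 and 90 min. Gat1gcn4 against WT at 20 min was -0.017. The difference from the WT change was -0.22 and -0.36 in gcn4 at 20 and 30 min and -0.0068, -0.31 and -0.28 in gat1 at 20, 30 and 45 min. Why this probe set differs was not tested.

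Calls over the 6 genes are counted next. At 0 min against WT there were 7, 22 as deposited and 4 to 8 with a replicate or 0 min array left out (4 without WT replicate 1). Against 0 min within strains there were 16, with 0 as deposited, 38 with quality weights, 25 and 27 with the replicate block as a random or fixed term, 7 on that probe set, and 8 to 20 with a replicate left out (8 without gat1 replicate 1 or 2). The F-test made 5, with 0, 15, 8, 9 and 2 in the same order, and 3 to 6 with a replicate left out. Against WT after 3AT there were 12, 77 as deposited, 60 with quality weights and 5 to 27 with a replicate left out (5 without WT replicate 2, 19 without leu3 replicate 3, 27 without gat1gcn4 replicate 3). For the change to 60 min against that of WT there was 1, with 0 as deposited, 7 with quality weights, 3 with the random replicate block, 2 on one of the other ZRT1 probe sets and 0 to 2 with a replicate left out. For the mean of 0 to 60 min there were 5, 18 as deposited, 19 with quality weights, 11 over all arrays with the replicate block, 17 over all arrays without it, and 1 to 10 with a replicate left out (1 without WT replicate 2, 10 without gat1gcn4 replicate 3). Against the sum of single deletions there were 6, and 0 as deposited. Within WT and the single deletions, scaled arrays alone moved the calls against 0 min from 11 to 20, the F-test from 4 to 7, those against WT after 3AT from 2 to 22, the change to 60 min from 0 to 3 and the mean from 0 to 4.

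Over all genes the counts moved likewise. The values as deposited, quality weights and the reported setting gave 15328, 3681 and 1097 at 0 min, 90, 23782 and 5175 against 0 min, 73, 12592 and 2781 by the F-test, 77267, 24378 and 6450 against WT after 3AT, 1, 1280 and 79 for the change to 60 min, 16458, 8185 and 2457 for the mean, and 144, 2018 and 539 against the sum. The random replicate block gave 10377 against 0 min, 5800 by the F-test and 155 for the change to 60 min. Scaled arrays alone gave 1145 in place of 287 at 0 min and 10455 in place of 3368 against 0 min.

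Median centring ended the calls of ZRT1 in gat1gcn4 (1.24) and gcn4leu3 (1.31) and of ZRT2 in gat1 (2.08) at 20 min, and of ZRT3 in gat1gcn4 at 20 min (0.58) and in gcn4leu3 at 45 min (0.68) and over the mean (0.43). As an alternative, replicate numbers shared across strains were fitted as a block, which changed 0 of the 7 calls at 0 min in number. The random block of strain and number used above added 1 call there, ZPS1 in gat1 (-1.85, adjusted p = 0.00941 by limma). Signals near background limit ZAP1, and 2 or 3 arrays a group limit every call.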
